A study of Mus musculus with 6 samples.

Results

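The 10 genes described here encode ligands of the TNF superfamily that B cells can make: Tnfsf4 (OX40L), Cd70, Tnfsf9 (4-1BBL), Tnfsf8 (CD30L), Lta, Ltb, Tnf, Fasl, Tnfsf11 (RANKL) and Tnfsf13 (APRIL). They were taken by symbol from the gene count table, in which each of the 10 has a row among 24499 genes. Expression was measured by poly(A) RNA-seq in B cells from mice with conditional Eif3e alleles (eIF3e is a translation initiation factor subunit) and in control B cells, with 3 libraries in each group and each library from the spleen of a separate C57BL/6J mouse. The cKO mice carried Eif3e fl/fl, Cγ1Cre and Rosa26-YFP LSL. Cγ1Cre drives Cre from the Ighg1 locus, which B cells use after activation, and YFP marks the cells in which Cre has acted. YFP+ cells were sorted from both groups, so the control cells had Cre activity too. Control genotypes differ between experiments of the study, and the Eif3e alleles of these control libraries and the ages of these mice are not given in the sources used here. Naïve B cells had been grown for 3 days with IL-4 at 1 ng/ml on 40LB cells, a BALB/c 3T3 fibroblast line that expresses CD40L and BAFF and had been irradiated with 120 Gy, a culture that yields germinal center-like B cells in vitro (iGCBs). One label field gives the culture time as longer than the 3 days stated in the time label and in the design.

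TNF superfamily ligands are mostly trimeric membrane proteins, some of which are cleaved to soluble forms, and they signal through TNF receptor superfamily members on neighbouring cells. OX40L, CD70, 4-1BBL and CD30L on antigen-presenting cells bind OX40, CD27, 4-1BB and CD30 on T cells and prolong T cell expansion and survival. Lymphotoxin α and β form a membrane complex on B cells that acts through the lymphotoxin β receptor on stromal cells and maintains follicles, whereas TNF and soluble lymphotoxin α share the TNF receptors. FasL triggers apoptosis through Fas, RANKL acts on RANK, and APRIL supports plasma cells through TACI and BCMA.

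The libraries held between 39079582 and 45504570 counts. Pearson's r of log expression across genes was 0.977 to 0.982 within a group and 0.953 to 0.961 between groups. Levels are given as CPM, counts scaled to the adjusted library size, as mean ± SD with n = 3. Eif3e itself had a mean of 158 ± 13.1 CPM in the cKO group and 406 ± 16.5 CPM in the controls, a log2 fold change of −1.36 (SE 0.0657, adjusted p = 6.71e-07, edgeR), so the labels and the targeted gene go the same way. Transcripts remained, and bulk RNA does not tell fewer deleted cells from less RNA per cell, which holds for every ligand below as well. The 6 B cell markers summed to between 4464 and 4620 CPM in cKO and between 4331 and 4687 CPM in control libraries. Of markers of other cells, the 11 fibroblast genes of the feeder summed to 104 to 130 CPM against 78.6 to 144 CPM, with Lum and Postn at 0. Among them Fn1 (40.3 against 19.2 CPM, adjusted p = 0.000651) and Col5a1 (5.39 against 1.77 CPM, adjusted p = 0.000185) were higher in every cKO library. The other 6 tested were not called and all had log2 fold changes below 0, and the median of the 8 tested was −0.36. The 8 T cell genes gave 1.69 to 2.07 CPM against 2.33 to 4.78 CPM, with Cd3e at 0, and the 5 NK cell genes gave 2.02 to 3.17 CPM against 6.46 to 9.97 CPM, with Ncr1 and Nkg7 at 0. The 7 myeloid genes gave 4.08 to 6.06 CPM against 1.22 to 2.45 CPM, with Cd14, S100a8 and S100a9 at 0. The 4 plasma cell genes gave 157 to 176 CPM against 380 to 480 CPM, 3 of them lower and Sdc1 higher in cKO. The T, NK and myeloid sums each rested mostly on 1 gene, namely Cd28 (1.71 CPM in cKO against 3.68 CPM), Prf1 (2.36 against 7.47 CPM) and Adgre1 (4.61 against 1.18 CPM), while the other markers of these lists averaged under 0.4 CPM in either group. The part of these genes, of the plasma cell genes and of Fn1 and Col5a1 in the ligand results was not tested. Mice of both sexes were present in each group, since Xist had 53272 counts in 1 cKO library, 58899 and 70912 counts in 2 control libraries and at most 16 counts in the others.

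The ligand genes Ltb, Tnf and Lta lie side by side on chromosome 17 (mm10), and their RNAs were all lower in cKO cells by adjusted p. The sequences just upstream of Ltb and Tnf are shown, as given by RefSeq for GRCm38.p6. They are written 5′ to 3′ in the direction of the gene. The sequence upstream of Lta was searched as well but is not printed. Of the 10 members, 7 had a promoter sequence in the RefSeq table. Capitals mark a match to the NF-kB consensus, a motif bound by the transcription factors that CD40 and BAFF receptors activate. The Ltb stretch is chr17:35194257-35194438 on the plus strand and stops where the annotated gene begins. The Tnf stretch is chr17:35202008-35202257 on the minus strand.
Ltb: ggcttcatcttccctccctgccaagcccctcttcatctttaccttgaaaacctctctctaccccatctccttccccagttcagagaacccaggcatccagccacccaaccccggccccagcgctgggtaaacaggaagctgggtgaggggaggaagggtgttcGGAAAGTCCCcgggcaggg
Tnf: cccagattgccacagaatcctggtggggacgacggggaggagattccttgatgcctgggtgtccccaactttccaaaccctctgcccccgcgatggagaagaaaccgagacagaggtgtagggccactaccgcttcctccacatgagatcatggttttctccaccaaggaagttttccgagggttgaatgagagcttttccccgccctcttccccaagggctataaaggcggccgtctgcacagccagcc
The Ltb match, GGAAAGTCCC, lies at −87 to −78 from the RefSeq start. Neither strand of the 250 bases upstream of Tnf, nor of Lta, Fasl, Tnfsf8, Tnfsf11 and Tnfsf13, held a match. Across 32851 windows of the same 250 bases in the RefSeq table, 5% held one. The AP-1 motif TGANTCA was found upstream of Tnfsf13 alone among the members with a sequence, at −133 to −127 from the RefSeq start, which lies inside the annotated span of the gene, and in 6.75% of all windows. Both motifs were chosen after the expression values had been seen, and a match is a description of the letters and not of binding.

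The ligands did not move as one family. The study's 2 cutoffs, 0.05 for the adjusted p and 1.5 for the fold change, were applied here. Past both, Tnfsf4 and Cd70 rose and Tnf fell in cKO iGCBs. Ltb and Lta fell by less than 1.5-fold, Tnfsf9 and Tnfsf11 did not pass the test, and Tnfsf8, Fasl and Tnfsf13 were too low to be tested. Of the 7 members tested, 2 were therefore higher, where 10.4% of the 13296 genes tested were higher, and 1 was lower, where 10.6% were lower. By adjusted p alone, 2 were higher against 24.1% of genes and 3 were lower against 24.5%. The CPM of the groups did not overlap for 6 of the 7, with cKO above for 3 and below for 3, where 58.7% of genes did not overlap. The median log2 fold change of the 7 was 0.31, and that of all genes tested was −0.0040. Tnfsf11 counts among the 3 above and in the median of the 7. It passed the low-count filter through the cKO libraries, so its part in both is a description. With 3 libraries in each group the exact permutation test of single values cannot give a p below 0.1.

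**Figure D1:**
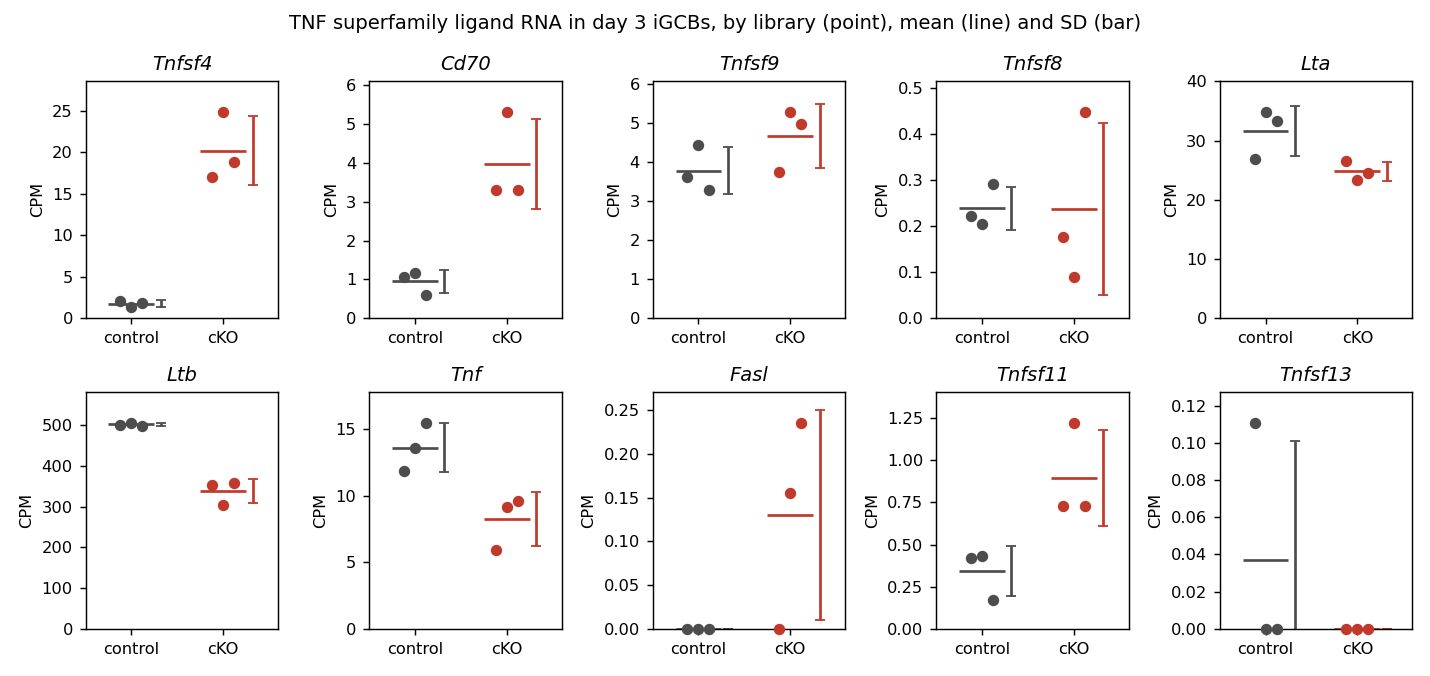
CPM of each of the 10 ligand genes (y axis, linear, a scale of its own in each panel) in the 3 control and 3 cKO libraries; points are libraries, lines are group means and bars are the SD. Tnfsf4 and Cd70 sit higher in every cKO library, Ltb, Lta and Tnf lower, and Tnfsf8, Fasl and Tnfsf13 stay under 0.5 CPM.

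Among the ligands that costimulate T cells, Tnfsf4 showed the largest change of any member tested. Tnfsf4 (chromosome 1, 161395409 to 161418410, plus strand) encodes OX40L, the ligand of OX40 on activated and follicular helper T cells. It had 771, 1118 and 796 counts in the 3 cKO libraries and 95, 52 and 74 counts in the controls. Every cKO library was far above every control library. The mean level was 20.2 ± 4.12 CPM in cKO and 1.74 ± 0.394 CPM in control cells, a log2 fold change of 3.53 (SE 0.206, 95% interval 3.07 to 3.99, adjusted p = 1.62e-06, edgeR), or 11.5-fold. The exact permutation p was 0.1, the smallest possible. Over 16 alternative settings the log2 fold change of Tnfsf4 stayed between 3.35 and 3.69. The gene has 1 RefSeq transcript in the transcript table, with the same counts.

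Cd70 (chromosome 17, 57145997 to 57149777, minus strand) encodes the ligand of CD27, which is carried by T cells. It had 150, 239 and 140 counts in cKO libraries and 48, 46 and 25 counts in controls. The lowest cKO library, at 3.30 CPM, was well above the highest control library, at 1.17 CPM. The means were 3.97 ± 1.16 CPM and 0.947 ± 0.299 CPM, a log2 fold change of 2.07 (SE 0.325, 95% interval 1.34 to 2.79, adjusted p = 0.000481), or 4.19-fold. The log2 fold change of Cd70 lay between 1.80 and 2.36 over the alternatives, and the gene was called in each of them.

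Tnfsf9 (chromosome 17, 57105325 to 57107757, plus strand) encodes 4-1BBL, which binds 4-1BB on activated T and NK cells. Its counts were 170, 238 and 211 in cKO and 163, 175 and 135 in control libraries. The first cKO library lay within the control range. The means were 4.67 ± 0.815 CPM and 3.78 ± 0.605 CPM, the log2 fold change was 0.31 (SE 0.206, adjusted p = 0.252), and the exact permutation p was 0.2. Its 95% interval ran from −0.15 to 0.76, a range that includes both no change and a rise of over 1.5-fold. Of the 1290 exonic bases of Tnfsf9, 14.9% also lie in exons of Gm11110, a noncoding RNA gene on the opposite strand. Whether counting used strand is not given in the sources used here, so reads in those bases cannot be assigned to one gene. Gm11110 was lower in cKO, with a log2 fold change of −0.83 (SE 0.178, adjusted p = 0.00319).

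Tnfsf8 (chromosome 4, 63831308 to 63861347, minus strand), which encodes the CD30 ligand, was close to the limit of measurement. It had 8, 4 and 19 counts in cKO and 10, 8 and 12 counts in control libraries, or 0.238 ± 0.187 CPM and 0.239 ± 0.0464 CPM. The cKO libraries spanned the whole control range. It did not pass the filter on low counts, and without that filter its log2 fold change was −0.0087 (adjusted p = 0.995, edgeR).

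Ltb was the most abundant member by a wide margin. Ltb (chromosome 17, 35194439 to 35196320, plus strand) encodes lymphotoxin β, the membrane anchor of the lymphotoxin complex. It had 15998, 13689 and 15161 counts in cKO and 22581, 19903 and 20564 counts in control libraries. The 3 control libraries were close to each other, from 499 to 506 CPM, and all cKO libraries lay well below them. The means were 338 ± 29.4 CPM and 502 ± 3.78 CPM, a log2 fold change of −0.57 (SE 0.0640, 95% interval −0.71 to −0.43, adjusted p = 5.56e-05). The fall was just short of the 1.5-fold cutoff, which is 0.585 on the log2 scale. Ltb passed that cutoff when cKO replicate 1 (−0.60) or cKO replicate 3 (−0.61) was left out, and with the Xist level as a covariate (−0.61).

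Lta (chromosome 17, 35203165 to 35205351, minus strand) encodes lymphotoxin α, which is secreted as a homotrimer or held at the membrane by lymphotoxin β. Its counts were 1206, 1052 and 1038 in cKO and 1211, 1369 and 1368 in control libraries. The groups did not overlap in CPM, but the first cKO and the first control library were nearly level, at 26.6 CPM and 26.8 CPM. The means were 24.8 ± 1.62 CPM and 31.6 ± 4.23 CPM, and the log2 fold change was −0.35 (SE 0.110, adjusted p = 0.0238). The adjusted p rose to between 0.0717 and 0.0849 without cKO replicate 2, cKO replicate 3, control replicate 2 or control replicate 3, each left out alone.

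Tnf (chromosome 17, 35199381 to 35202007, minus strand) encodes TNF, an inflammatory cytokine that also shapes B cell follicles. It had 268, 412 and 408 counts in cKO and 533, 532 and 637 counts in control libraries. All cKO libraries were below all controls, and cKO replicate 1 was the lowest. The means were 8.23 ± 2.02 CPM and 13.6 ± 1.83 CPM, a log2 fold change of −0.73 (SE 0.186, 95% interval −1.14 to −0.31, adjusted p = 0.00869). Without cKO replicate 1 the log2 fold change of Tnf was −0.53 (adjusted p = 0.0173), under the fold cutoff. The transcript table splits Tnf between a pair of RefSeq transcripts. NM_013693 had 268, 412 and 408 counts in cKO and 533, 387 and 442 in control libraries, with a log2 fold change of −0.39 (adjusted p = 0.286). NM_001278601 had 145 and 195 counts in control replicates 2 and 3 and was listed at 0 in the other 4 libraries, so it was not tested. The assignment to isoforms thus differed between libraries of the same group, and its part in the gene-level fall was not tested.

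The remaining ligands were rare. Tnfsf11 (chromosome 14, 78277445 to 78308043, minus strand) encodes RANKL, the ligand of RANK and of its decoy osteoprotegerin. It had 33, 55 and 31 counts in cKO and 19, 17 and 7 counts in control libraries, and it passed the low-count filter through the cKO libraries. Every cKO library was above every control library. The means were 0.893 ± 0.285 CPM and 0.341 ± 0.148 CPM, and the log2 fold change was 1.38 (SE 0.540, 95% interval 0.18 to 2.58, adjusted p = 0.0568), which did not pass the test. The adjusted p of Tnfsf11 was under 0.05 when counts were divided by 2 (0.0333) and with the Xist level as a covariate (0.0252), was 0.214 without cKO replicate 2 and 0.143 without control replicate 3, and could not be had where counts were divided by 4 or 10 counts were required in every sample. Since the cKO libraries carried it past the filter, these values are a description and support no difference.

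Fasl (chromosome 1, 161780689 to 161788495, minus strand), which encodes the death ligand of Fas, had 0, 7 and 10 counts in cKO libraries and 0 counts in each of the 3 controls. It was not tested. The first cKO library was at 0 as the controls were, so the groups overlap, and without the filter the adjusted p was 0.117. Fasl is best known from T and NK cells, whose marker lists are summed above. The part of such cells in the Fasl counts was not tested. Tnfsf13 (chromosome 11, 69682846 to 69685784, minus strand), which encodes APRIL, had 5 counts in control replicate 1 and 0 counts in the other 5 libraries. Of its 1637 exonic bases, 60.0% are shared on the same strand with Tnfsfm13, a gene model that joins Tnfsf12 to Tnfsf13, and 13.5% lie in the opposite-strand Tnfsf13os, so even these counts are uncertain. A count of 0 allows up to 3 counts, or 0.0661 to 0.0763 CPM in these libraries, for counting error only. That limit takes a count as 1 fragment, whereas the most frequent value above 0 in the table was 4, so the true limit can be higher. Neither Fasl nor Tnfsf13 was therefore measurable as a difference between the groups at this depth.

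**Figure D2:**
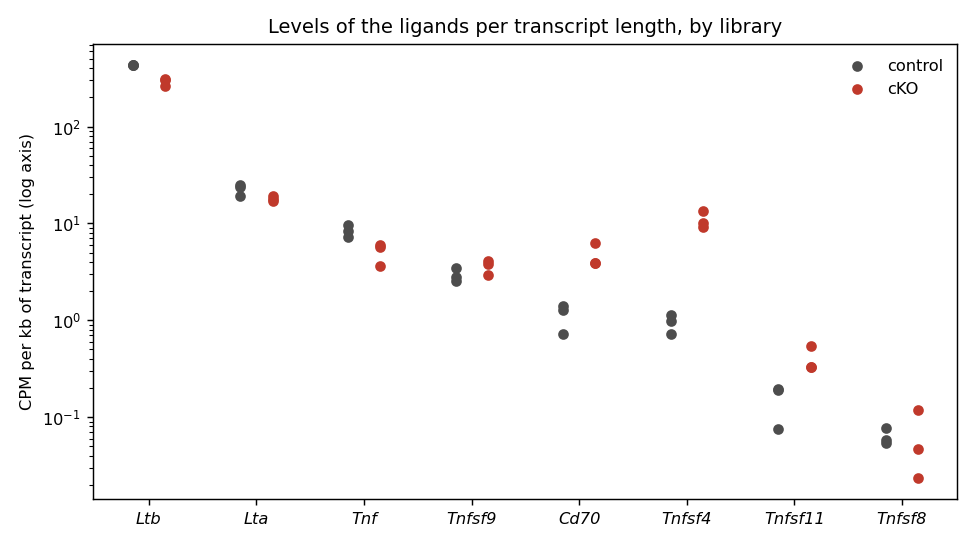
CPM per kb of transcript (y axis, log scale) for 8 ligand genes, with the 3 libraries of each group as points. Fasl and Tnfsf13 are not drawn because they were at 0 in most libraries. Ltb lies above all others in both groups, and Tnfsf4 moves from beside Cd70 in control libraries to above Tnf in cKO libraries.

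Levels of different genes were compared per length, in CPM per kb of transcript. In control cells the order was Ltb (433 ± 3.26), Lta (22.9 ± 3.06), Tnf (8.41 ± 1.13), Tnfsf9 (2.93 ± 0.469), Cd70 (1.12 ± 0.355), Tnfsf4 (0.946 ± 0.214) and Tnfsf11 (0.153 ± 0.0663). Cd70 and Tnfsf4 were not separated by their library ranges there, nor were Tnfsf11 and Tnfsf8. Fasl was at 0 in every control library and Tnfsf13 in 2 of the 3, and the limit of such a 0 does not allow them to be ranked against Tnfsf11 and Tnfsf8. In cKO cells Ltb (291 ± 25.3) and Lta (17.9 ± 1.17) came first again, and Tnfsf4 (10.97 ± 2.24) came next, ahead of Tnf (5.09 ± 1.25), Cd70 (4.72 ± 1.38) and Tnfsf9 (3.62 ± 0.632). The libraries of the last 3 of these overlapped, while Tnfsf4 lay above all of them. Ltb made up 84.8% to 88.6% of the summed level of the 10 ligands in cKO and 91.7% to 93.1% in control libraries. Tnfsf4 made up 2.69% to 4.36% and 0.151% to 0.247%. For each unit of Tnfsf4 RNA there were 19.4 to 33.0 units of Ltb RNA in cKO and 377 to 608 units in control libraries. These shares and ratios restate the changes above and were not tested.

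Several ligand genes sit next to one another, so the genes around them were described from the same fit. Ltb and Tnf are 3.061 kb apart and Tnf and Lta 1.158 kb, Tnfsf9 and Cd70 are separated by 38.24 kb, and Tnfsf4 and Fasl by 362.279 kb. Within 100 kb of the members, 41 other genes were tested, of which 3 were higher and 8 lower past both cutoffs, where 10.4% and 10.6% of all genes tested were. The counts at single loci that follow are too small to set against these shares. Among these calls, Tnfsf15 (higher) and Tnfsf14 (lower) passed the low-count filter only through the group where they are high. Both calls are a description. Around Ltb, Tnf and Lta, 16 were tested. These include Mir6973a and Mir6974, microRNA genes inside Ltb and Lta on the same strand, which are not separate neighbours. Among the 16, 1 was lower. It was Lst1, a leukocyte-specific transcript, with 5.62 ± 0.740 CPM in cKO and 13.6 ± 3.30 CPM in control cells (log2 fold change −1.27, SE 0.193, adjusted p = 0.000382). Around Tnfsf9 and Cd70, 10 were tested, 2 were higher and 5 lower. C3, which encodes complement component C3, was higher at 13.1 ± 2.45 CPM against 7.42 ± 0.692 CPM (0.83, adjusted p = 0.00152). Tnfsf14 (LIGHT), the ligand next to Cd70, went the other way, as did Gm11110. Around Tnfsf13, Zbtb4 (−0.80, adjusted p = 0.00224) and Chrnb1 (−0.63, adjusted p = 0.0107) were lower among 11 tested. Tnfsf15, near Tnfsf8, was higher. The single tested neighbour of Tnfsf4 was another ligand gene, Tnfsf18 (GITRL), whose counts were 20, 4 and 0 in cKO and 41, 37 and 15 in control libraries (log2 fold change −2.03, adjusted p = 0.0991). Tnfsf18 is named after its values were seen, since it alone could be set beside Tnfsf4. It passed the low-count filter through the control libraries, where it is high, so its fold change is a description.

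**Figure D3:**
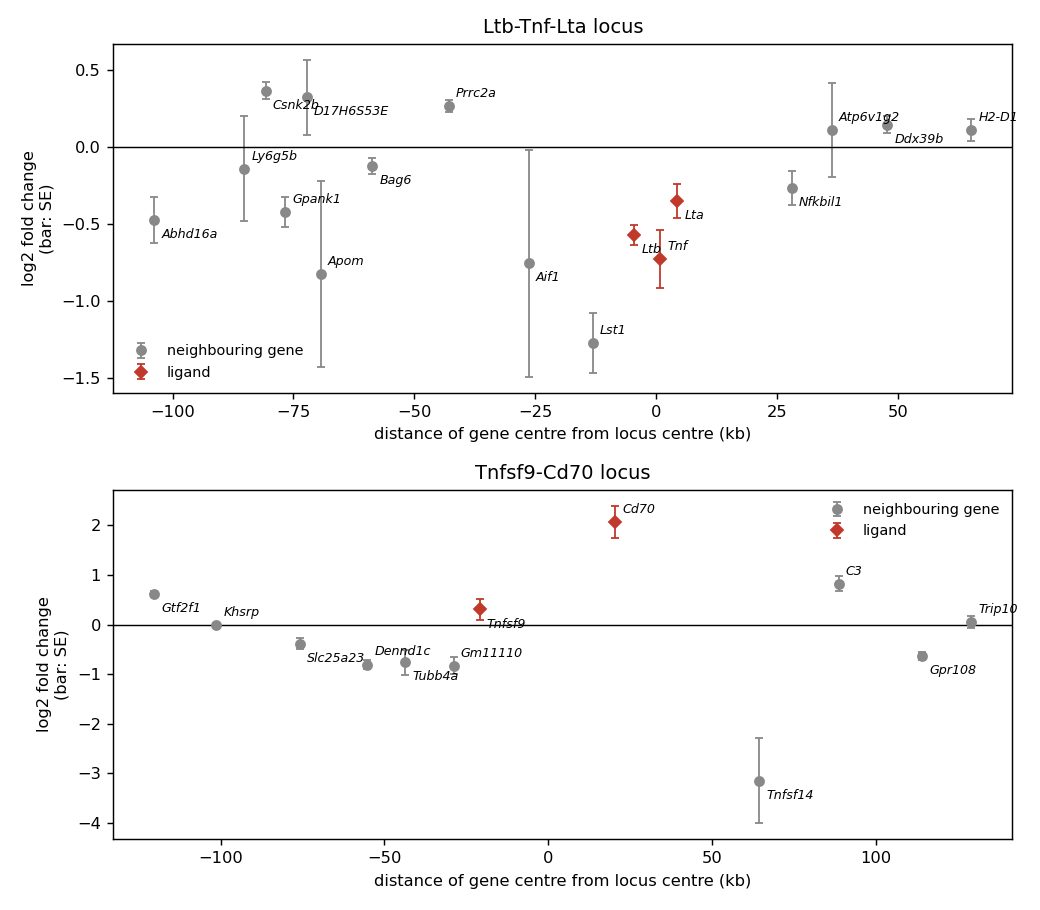
Log2 fold change of cKO over control (y axis; bars are the SE) for tested genes around Ltb, Tnf and Lta (top) and around Tnfsf9 and Cd70 (bottom), against the distance of each gene's centre from the centre of the locus in kb; diamonds are ligands, circles are neighbours, and the 2 microRNA genes that lie within Ltb and Lta are left out. Ltb, Tnf and Lta all lie below 0, while Cd70 at 2.07 stands apart from Tnfsf9 at 0.31. Tnfsf14 is drawn at −3.15 but passed the low-count filter through the control libraries, so its place is a description.

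Of the other ligands of the superfamily, 7 of 8 were tested, 1 was higher and 1 was lower, where 10.4% and 10.6% of all genes were, and the median log2 fold change was −0.26. Tnfsf15 (TL1A) had 24, 39 and 25 counts in cKO and 0 counts in each control library. It passed the low-count filter through the cKO libraries alone, so it had to differ, and its adjusted p of 0.000818 is a description. No fold is given, since every control library was at 0. Tnfsf14 had 7, 0 and 4 counts in cKO and 27, 19 and 49 counts in controls, with a log2 fold change of −3.15 (SE 0.853, adjusted p = 0.0115), and its adjusted p was 0.0562 without control replicate 3. It passed the filter through the control libraries, where it is high, so the call of Tnfsf14 carries the same limit. The RNAs for the ligands that the feeder cells supply were not called. Cd40lg had 36, 16 and 20 counts in cKO and 52, 21 and 10 in control libraries, and Tnfsf13b (BAFF) had 74, 80 and 82 against 99, 143 and 66. Reads of the sorted cells and of residual feeder cells are not told apart here, as both are mouse.

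Of the 13 receptors of the members, 11 were tested and 1 passed both cutoffs, with a lower level in cKO, where 10.6% of all genes were lower. By adjusted p alone 2 were higher and 1 lower, where 24.1% and 24.5% of all genes were, with a median of 0.35. Tnfrsf1b, which encodes TNF receptor 2, fell from 40.9 ± 2.77 CPM to 26.6 ± 2.90 CPM (log2 fold change −0.62, SE 0.1003, adjusted p = 0.000553), and without cKO replicate 3 its log2 fold change was −0.54, under the fold cutoff. The 2 that were higher by adjusted p are named for that count alone. Fas rose from 69.5 ± 4.31 CPM to 92.3 ± 3.32 CPM (0.41, adjusted p = 0.00036) and Tnfrsf13b (TACI) from 26.6 ± 3.37 CPM to 38.1 ± 0.634 CPM (0.52, adjusted p = 0.00158). Tnfrsf4 (OX40) and Cd27 were looked at afterwards as the receptors of the ligands that rose. Tnfrsf4 averaged 2.31 ± 0.217 CPM in cKO cells against 2.06 ± 0.523 CPM in controls (0.17, adjusted p = 0.649), and Cd27 at 0.619 ± 0.311 CPM and 0.484 ± 0.210 CPM (0.35, adjusted p = 0.651). Both receptor RNAs overlapped between the groups.

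All 9 genes for ligand shedding and processing were tested, with 1 higher past both cutoffs, 2 higher and 2 lower by adjusted p, and a median of 0.082. The called gene was Rhbdf1, an inactive rhomboid protein that helps to traffic the TNF-cleaving protease ADAM17, at 59.8 ± 0.806 CPM against 37.4 ± 2.23 CPM (0.68, SE 0.0703, adjusted p = 3.42e-05). Of the 12 receptor adaptors and effectors, all tested, 2 were higher and 3 lower past both cutoffs, 4 higher and 5 lower by adjusted p, and the median was −0.19. Over all genes tested, 10.4% were higher and 10.6% lower past both cutoffs, and 24.1% and 24.5% by adjusted p. Cflar, which encodes the caspase-8 inhibitor c-FLIP, rose from 86.3 ± 12.0 CPM to 161 ± 6.11 CPM (0.90, adjusted p = 2.92e-05). Birc2, which encodes the ubiquitin ligase cIAP1, rose from 205 ± 19.1 CPM to 322 ± 12.2 CPM (0.65, adjusted p = 3.59e-05). Traf2 fell from 61.3 ± 4.92 CPM to 37.4 ± 2.32 CPM (−0.71, adjusted p = 6.59e-05), Tradd from 22.8 ± 1.42 CPM to 14.8 ± 0.667 CPM (−0.62, adjusted p = 0.000434) and Traf5 from 35.0 ± 3.27 CPM to 22.8 ± 0.502 CPM (−0.62, adjusted p = 0.000308). Without control replicate 3 the log2 fold changes of Tradd and Traf5 were −0.58 and −0.54, under the fold cutoff.

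**Figure D4:**
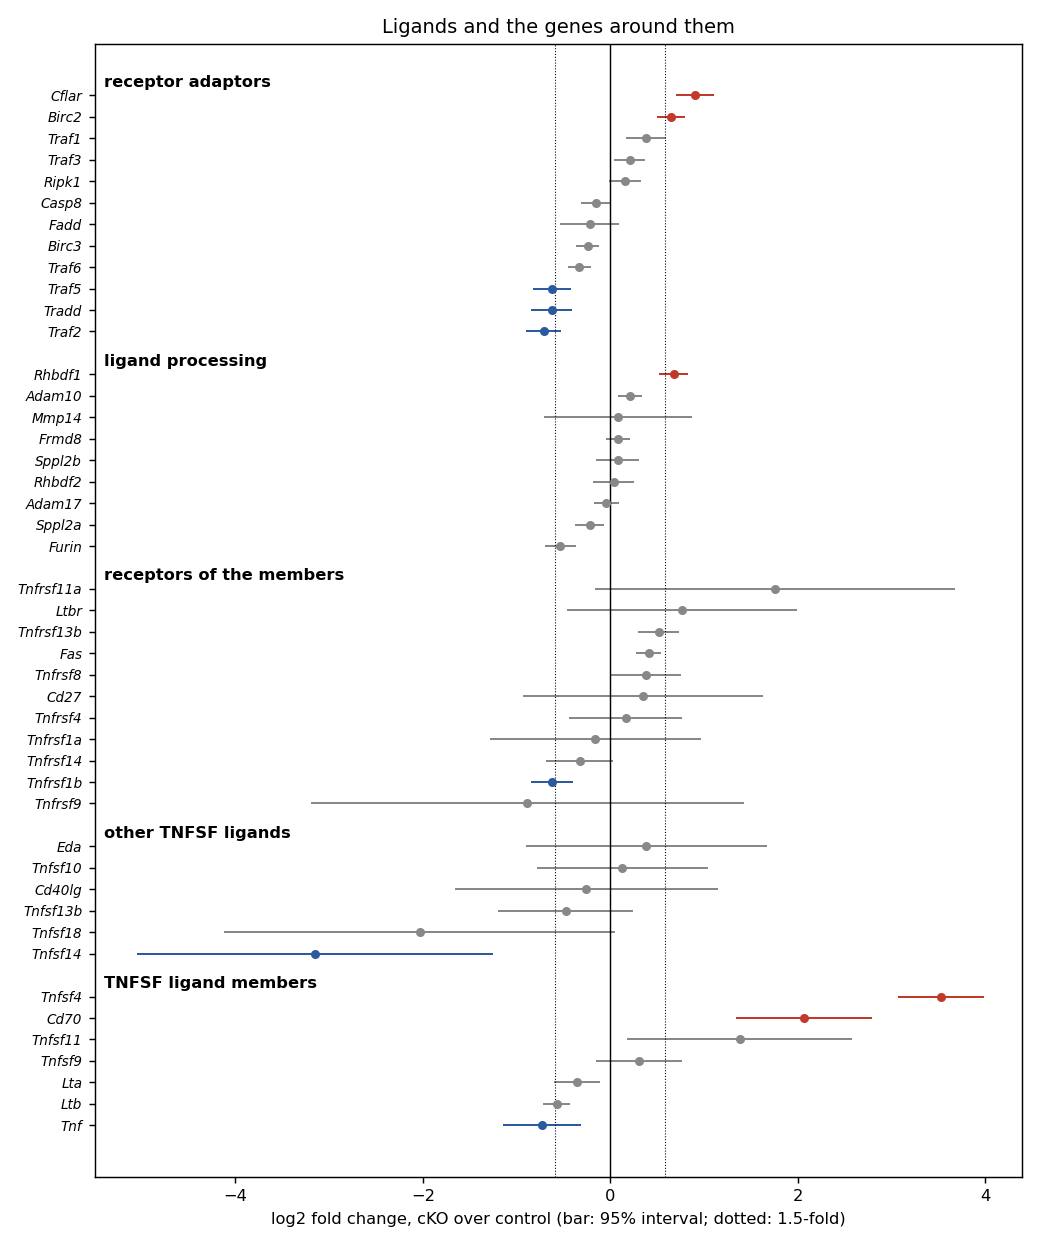
Log2 fold change of cKO over control (x axis, with 95% intervals; dotted lines mark 1.5-fold) for the tested members and the tested genes of the other ligands, their receptors, processing factors and adaptors; red is higher and blue lower past both cutoffs, and Tnfsf15 is left out because its control libraries are at 0. Tnfsf4 at 3.53 and Cd70 at 2.07 lie farthest to the right among the members, and the adaptors stay between −0.71 and 0.90.

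At the transcript level, 18040 RefSeq transcripts were tested. The only member transcripts called were those of Tnfsf4 (log2 fold change 3.53, adjusted p = 0.00102) and Cd70 (2.06, adjusted p = 0.0149), where 6.26% of all transcripts tested were higher and 6.80% were lower. The transcripts of Tnfsf9, Lta, Ltb and Tnfsf11 and NM_013693 of Tnf were tested and not called, so the call of Tnf held for the gene only. The gene counts of all members equalled the sums of their transcripts in each library.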

How the data were processed

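Poly(A) RNA-seq libraries from 3 cKO and 3 control mice were used. After adapter and quality trimming, the authors mapped the reads to mm10 using HISAT2, ran StringTie, and deposited the estimated counts that prepDE extracts, for genes and for RefSeq transcripts; tool versions and strand setting are not given in the sources used here. The deposited expected counts were already whole numbers, and rounding left them as they were. Genes kept by filterByExpr (minimum count 10) were tested with the edgeR 4.0.16 quasi-likelihood test in R 4.3.3 (TMM normalization, cKO against control, no covariate), and p-values were adjusted by Benjamini-Hochberg over all 13296 genes. A call needed adjusted p under 0.05 and a fold over 1.5. DESeq2 1.42.0, other scalings, filters and left-out replicates were alternatives. CPM used TMM library sizes. Transcript lengths were summed exon lengths of the GENCODE M21 transcripts matched to each RefSeq accession, with the longest match kept. Locations came from GENCODE M21. The code was tested on simulated counts.

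All 10 members are named, with Eif3e, Cd40lg and Tnfsf13b. Of each other list the genes past both cutoffs are named, at most 6, and of the neighbours at most 3 for each locus, ranked by absolute log2 fold change, and genes named outside this rule are said to be so. The members and lists were chosen with earlier results of these data known.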

Additional observations from a re-analysis of the deposited data

How the results depend on the processing

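Tnfsf4 and Cd70 were called under every alternative run. With the Xist level as a covariate 5 members were called (Ltb and, past the filter only through the cKO libraries, Tnfsf11 in addition) and 2 receptors. A test against 1.5-fold, in place of the fold cutoff, called 584 genes higher and 580 lower, 1 other ligand, 0 receptors, 0 processing genes, 1 adaptor, 3 neighbours and 1 member transcript, and lost Tnf (adjusted p = 0.487). Requiring 10 counts in every sample left 0 other ligands called, and so did dividing counts by 4, a setting chosen after seeing the data, since Tnfsf14 and Tnfsf15 were then not tested. With 1 library left out at a time, 1 to 3 other ligands, 0 to 2 receptors, 3 to 5 adaptors and 1 to 3 member transcripts were called. Cd40lg, not called, ranged from −0.64 to 0.48, and changed sign without control replicate 1 (0.48). The fit with the replicate number as a replicate block called 3 members, Tnfsf4, Cd70 and Tnf, and 1337 genes higher and 1398 lower. Same-numbered libraries had deviations correlated at 0.0085, 0.0839 and 0.133, and pairs of unlike number ran from −0.169 to 0.103. cKO 1 and cKO 2 correlated better with another number (0.0405 and 0.103). The paper used paired t tests for cell growth, death and surface protein in such iGCB cultures, but names no pairs for the RNA libraries. Whether the numbers pair the samples is thus not known, and the main fit left them unpaired. Depth limits Tnfsf8, Fasl, Tnfsf13 and, in part, Tnfsf11.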
